A study of Mus musculus with 16 samples.

Results

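The 45 genes described here encode NRF2, its regulator KEAP1 and proteins of antioxidant defence in general. They are not a list of NRF2 targets. They were chosen by name from a list of gene symbols among 20622 genes in the total RNA tables. The choice was made with earlier results of these data known. All 45 symbols were found, 44 of them also in the tables of ribosome-protected fragments (RPFs), where *Gpx3* was not listed. The cells were KM cells, grown from lung tumours of 1 male mouse that carried *Rosa26* LSL-MYC/LSL-MYC, a MYC transgene switched on by Cre, so both cell lines share it. Cre reached the lung by an adenovirus whose surfactant protein C promoter (Ad5-SPC-CRE) targets alveolar type II cells. KM_4A2cr cells had received a lentiviral CRISPR guide to the coding region of *Eif4a2*, an RNA helicase of translation, and are a pool of eIF4A2-negative clones, and KM_NTC cells had received a non-targeting guide. Both were otherwise untreated. Loss of *Eif4a2* and the choice of clones cannot be told apart with 1 line each. RPFs, the mRNA stretches that ribosomes shield from nuclease, and cytoplasmic total RNA were sequenced from each of 4 lysates per cell line, made on different days, which gave 16 libraries.

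NRF2, encoded by *Nfe2l2*, is a transcription factor that KEAP1 holds in the cytoplasm and marks for degradation until electrophiles or oxidants modify KEAP1. It then enters the nucleus, pairs with small MAF proteins and binds antioxidant response elements near genes for glutathione synthesis, the thioredoxin system, NADPH supply and detoxification. Glutathione and thioredoxin systems pass electrons from NADPH to peroxides and oxidised proteins. The pathway is often active in human lung tumours, where loss of KEAP1 is a common route to it.

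The core of the antioxidant response element, TGACNNNGC, where N is any base, was looked for on both strands of promoter windows from RefSeq (GRCm38.p6; 250 bases before to 50 after each gene's start). It occurred in 11 of 39 members with a window, or 28.2%, against 14.0% of 27025 genes. *Hmox1*, *Gclc*, *Gsr*, *Prdx6*, *Akr1b3* and *Abcc1* had no window and were not searched. The matches of 5 members that span the groups described below are shown 5′ to 3′ along the strand of the gene with the core in capitals, followed by the 100 bases before the start of *Gpx2*, the member with the largest change. No core was found in the *Gpx2* window, which says only that these letters are not in it.
Nfe2l2, chr2:75704879-75704913, gene on the minus strand: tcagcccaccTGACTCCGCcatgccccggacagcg
Gclm, chr3:122245407-122245447, gene on the plus strand: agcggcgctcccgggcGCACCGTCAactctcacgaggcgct
Prdx1, chr4:116685450-116685490, gene on the plus strand: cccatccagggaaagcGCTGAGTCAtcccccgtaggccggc
Txnrd1, chr10:82859098-82859138, gene on the plus strand: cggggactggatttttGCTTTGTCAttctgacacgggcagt
G6pdx, chrX:74428913-74428953, gene on the minus strand: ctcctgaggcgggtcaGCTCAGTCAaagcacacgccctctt
Gpx2, chr12:76795555-76795654, gene on the minus strand: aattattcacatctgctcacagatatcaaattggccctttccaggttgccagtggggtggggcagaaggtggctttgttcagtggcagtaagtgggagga
Where the core reads as GCNNNGTCA in these lines it lies on the other strand.

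RPF libraries held from 4512403 to 9621848 counts and total RNA libraries from 5350919 to 9312622. *Eif4a2* had 97.7, 122, 99.8 and 389 RPF CPM (counts scaled to library size, after TMM) in KM_NTC replicates 1 to 4 and 51.0, 88.4, 74.8 and 346 in KM_4A2cr, lower in every pair, and its fitted log2 fold change was -0.49 (SE, the standard error, 0.15; Benjamini-Hochberg adjusted p = 0.0941, edgeR quasi-likelihood test), while its total RNA did not pass (-0.18, adjusted p = 0.504). Such counts do not measure eIF4A2 protein. All 6 epithelial markers were expressed, with summed TPM (abundance per transcript length) of 4446 to 5219 in KM_NTC and 4331 to 6725 in KM_4A2cr. The 6 alveolar type II markers summed to 29.1 to 35.3 TPM in KM_NTC and 37.2 to 48.7 in KM_4A2cr, nearly all from *Abca3*, and *Lamp3* lay at 0.52 to 1.63. Of the surfactant protein genes that define the type, *Sftpc* and *Sftpb* were listed at 0 in all 8 total RNA libraries, and *Sftpa1*, as well as *Nkx2-1*, lay at or below 0.12 TPM. The 7 fibroblast markers summed to 1.07 to 3.03 TPM, with *Col3a1*, *Dcn* and *Lum* at 0, and the 4 endothelial markers to 0.19 to 1.94. The 6 immune markers summed to 33.3 to 220.2 TPM, nearly all from *Cd68*, which was highest in replicate 4, and *Adgre1* and *Cd3e* were at 0. Replicate 4 stood apart in both cell lines (*Cd68* reached 219.9 and 154 TPM there and 32.5 to 62.9 elsewhere, and *Keap1* RPFs were lowest there), so results are also given without it. The part of Cd68-expressing cells in the results was not tested.

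Among the members, 41 passed the filter on low counts in RPFs, 42 in total RNA and 41 in both. In RPFs, 5 were lower in KM_4A2cr than in KM_NTC at an adjusted p below 0.1 (*Gpx2*, *Cat*, *Akr1b3*, *Txnrd1* and *Akr1a1*), against 3.72% of all 10291 genes tested, and 1 was higher (*Prdx5*), against 6.6%. In total RNA, 1 member fell (*Gpx2*; 1.78% of all 10880 genes) and 1 rose (*Prdx5*; 4.35%). *Gpx2* was listed with its fall in total RNA known. Counts, shares and medians that include it therefore describe the libraries and are no independent evidence. The log2 fold change was below 0 for 31 of 41 members in RPFs, or 75.6%, with a median of -0.21, while over all genes the share was 51.1% and the median -0.01. In total RNA it was below 0 for 25 of 42, or 59.5%, with a median of -0.08 against 48.4% and 0.01 over all genes. Most members passed in neither measure, and in a fit that ignored the pairing of replicates edgeR called 0 members, and 0 of all genes, in either, with 4 and 2 members at an unadjusted p below 0.05. With scaling by library size alone, which moved the median of all genes to -0.14 and -0.15, 13 members were lower and 1 higher in RPFs (all genes 1137 and 482) and 5 and 1 in total RNA (868 and 262). TMM gave 383 lower and 679 higher genes in RPFs and 194 and 473 in total RNA, and upper-quartile scaling gave 464 and 534, and 216 and 325. In these bulk samples, fewer cells of a kind and less RNA per cell cannot be told apart.

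**Figure D1:**
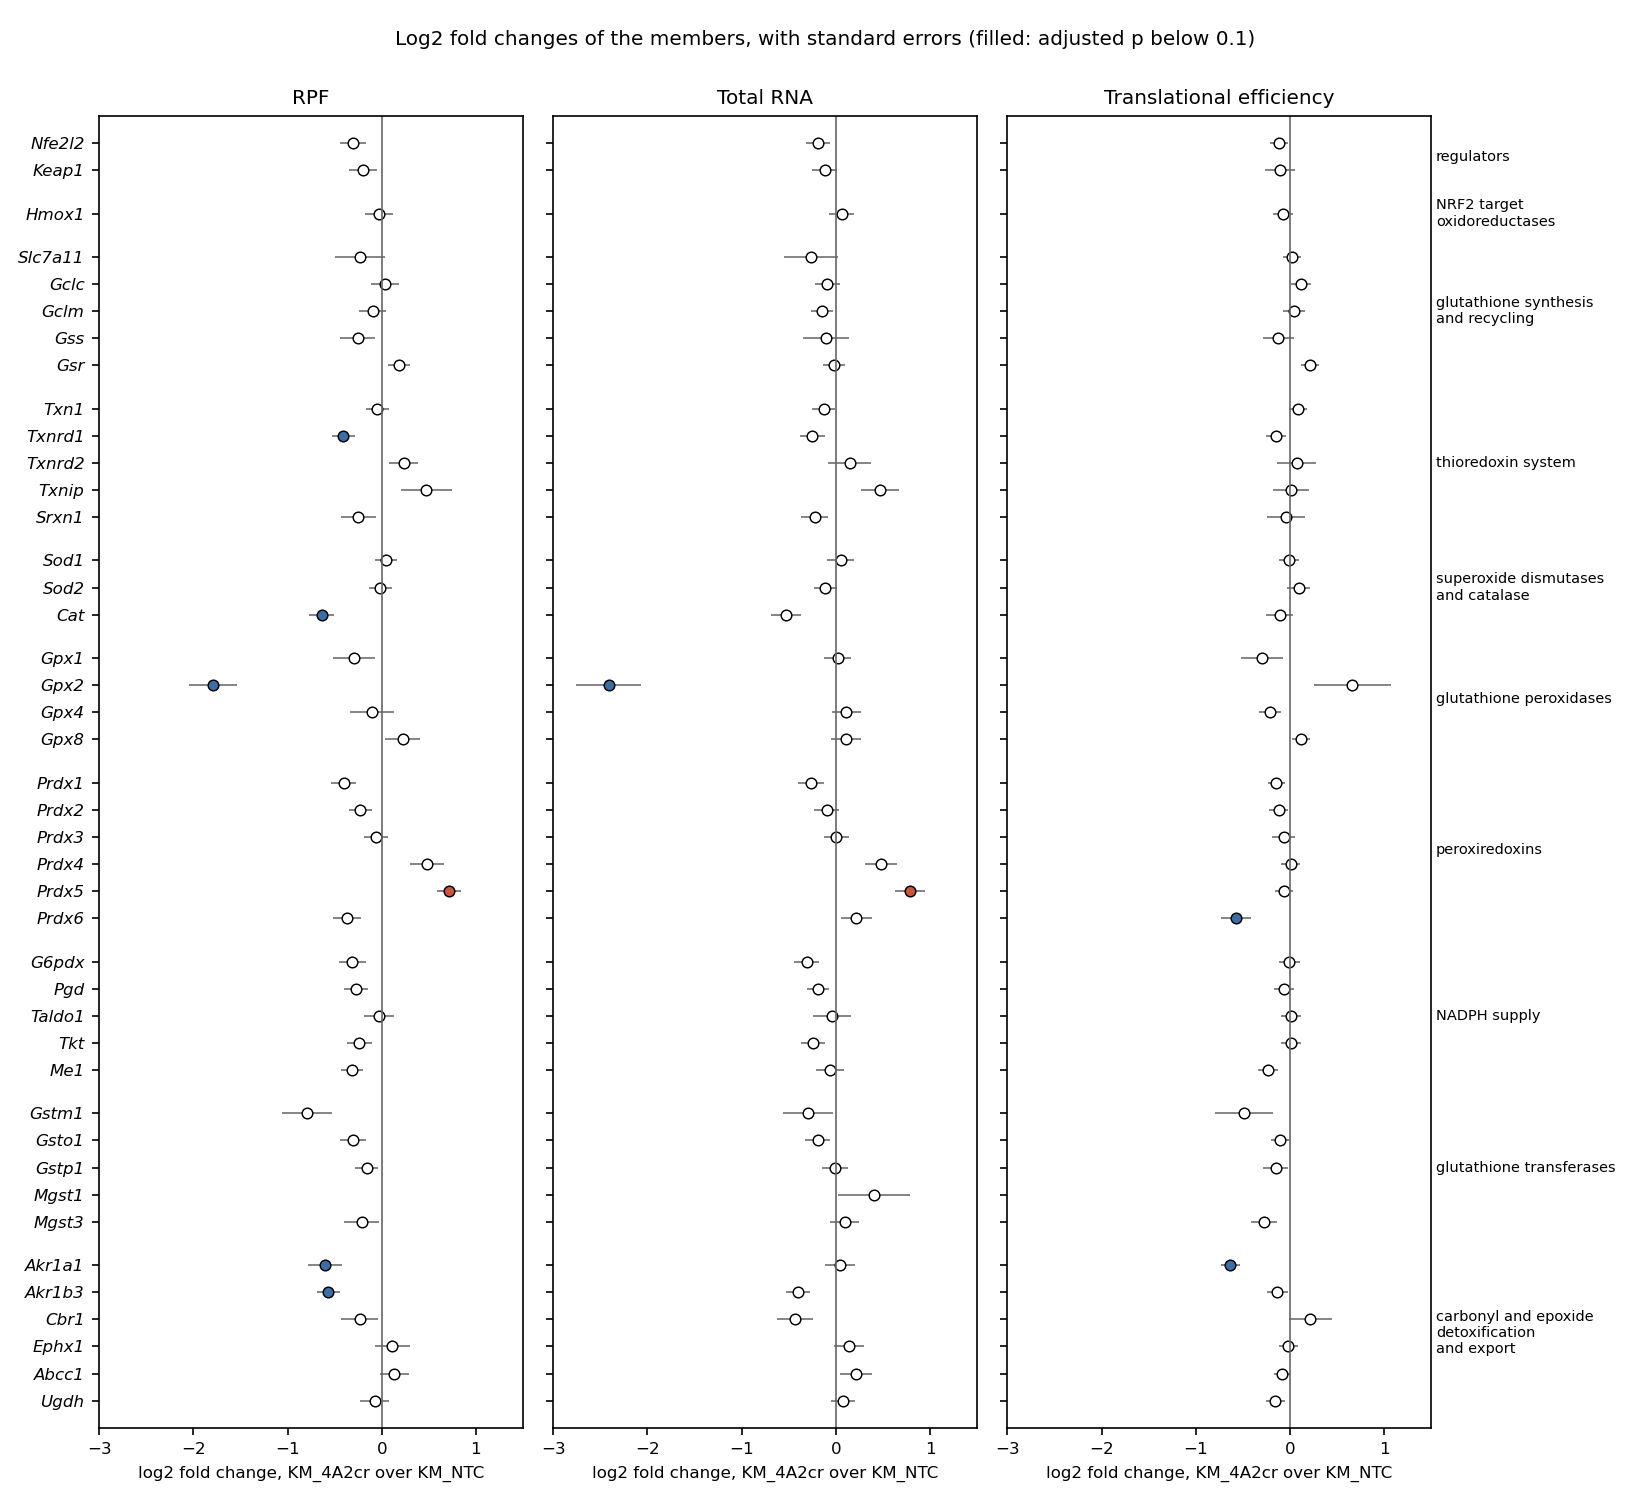
Log2 fold changes of KM_4A2cr over KM_NTC for the tested members, grouped by role, in RPFs, total RNA and translational efficiency. Points are fitted values and lines are standard errors derived from the test statistic of the fit, not a spread over pairs. Filled points passed an adjusted p of 0.1 (blue lower, red higher). *Gpx2* lies farthest to the left in RPFs (-1.79) and total RNA (-2.41).

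Without replicate 4, 16 of 41 members were lower and 4 higher in RPFs, where 14.3% and 19.1% of all 10376 genes were called, and 12 and 7 of 42 in total RNA, where the shares were 12% and 17.8%. The 6 members called in RPFs and the 2 called in total RNA over all libraries were among them, with the same direction. Of the members that had 1 direction in pairs 1 to 3, pair 4 went the other way for 5 of 7 that were higher and 10 of 22 that were lower in RPFs, and for 6 of 7 and 9 of 21 in total RNA. Over all genes the shares were 47.9% of those higher and 43.6% of those lower in RPFs, and 52.4% and 48.6% in total RNA. Leaving out replicate 3 instead left no member called in RPFs, with 5 at an unadjusted p below 0.05 by edgeR, and 32 genes called in all. Without replicate 1 or 2, 2 and 1 members were called in RPFs, and 2.27% and 1.2% of all genes. In total RNA, 2, 1 and 1 members were called without replicate 1, 2 or 3, and 1.91%, 1.3% and 0.58% of all genes.

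**Figure D2:**
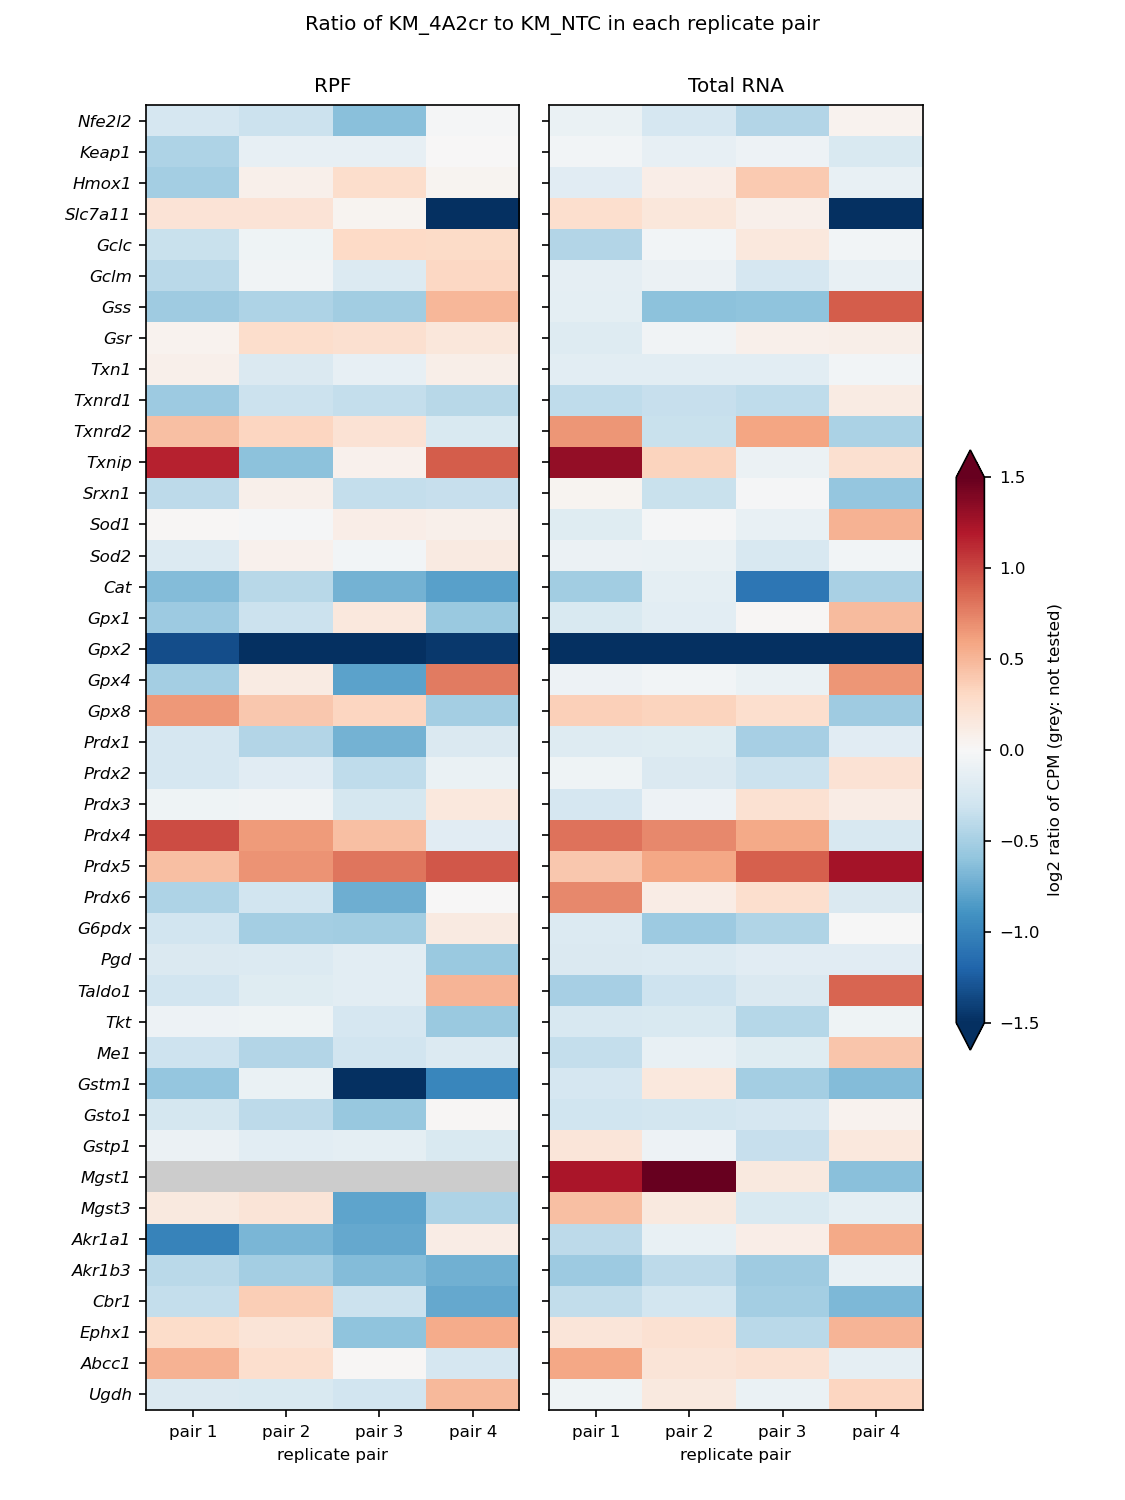
Log2 ratio of CPM in KM_4A2cr to KM_NTC for each tested member (rows, ordered by role) in each replicate pair (columns), for RPFs and total RNA; red is higher and blue lower in KM_4A2cr, and colours saturate at 1.5. *Gpx2* is blue and *Prdx5* red in every pair, whereas *Slc7a11*, *Gss*, *Taldo1* and *Prdx4* change colour in pair 4.

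The regulators did not pass the threshold. *Nfe2l2* (ENSMUSG00000015839.7) had 145, 169.5, 129 and 154 RPF CPM in KM_NTC replicates 1 to 4 and 122, 136, 83.8 and 152 in KM_4A2cr. It was lower in 4 of 4 pairs, but by almost nothing in pair 4, and the groups overlapped. Fitted log2 fold changes were -0.30 (SE 0.14, adjusted p = 0.217) in RPFs and -0.19 (SE 0.13, adjusted p = 0.489) in total RNA, and without replicate 4 it passed in both, at -0.39 (adjusted p = 0.0160) and -0.27 (adjusted p = 0.0526). Without replicate 1, 2 or 3 it did not pass in RPFs, at -0.32, -0.29 and -0.17 (adjusted p = 0.381, 0.575 and 0.663 by edgeR). *Keap1*, whose protein carries NRF2 to the ubiquitin ligase, stood at 20.7, 19.4, 16.4 and 5.87 RPF CPM in KM_NTC and 15.1, 17.7, 15.2 and 5.92 in KM_4A2cr, with overlapping groups and the lowest value of each line in replicate 4. The fit gave -0.20 (SE 0.15, adjusted p = 0.455) in RPFs and -0.12 (SE 0.13, adjusted p = 0.696) in total RNA.

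Neither of the classical NRF2 target oxidoreductases passed. *Nqo1*, a quinone reductase often used to read NRF2 activity, had 3 RPF counts in KM_NTC replicate 1 and 0 in the other 7 RPF libraries, and 1 count in each of 2 total RNA libraries, 1 per cell line. Both groups are therefore at the limit of detection and no fold can be given. *Hmox1*, which breaks down haem, had 66.5, 206, 188 and 163 RPF CPM in KM_NTC and 46.7, 218, 224 and 167 in KM_4A2cr. Replicate 1 was the lowest in both lines, the groups overlapped over nearly their whole range, and the log2 fold changes of -0.03 (SE 0.15, adjusted p = 0.929) in RPFs and 0.06 (SE 0.14, adjusted p = 0.860) in total RNA lay near 0.

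None of the 5 genes of glutathione synthesis and recycling passed in RPFs or total RNA. *Slc7a11*, the cystine importer that feeds the pathway, had 187, 213, 294 and 137 RPF CPM in KM_NTC and 216, 245, 304 and 46.6 in KM_4A2cr. The last value is the lowest by far, and the ratio of the lines was 1.15, 1.15, 1.03 and 0.341 in pairs 1 to 4 in RPFs and 1.19, 1.13, 1.05 and 0.296 in total RNA. Its log2 fold change of -0.23 (SE 0.27, adjusted p = 0.648) in RPFs and -0.26 (SE 0.29, adjusted p = 0.682) in total RNA changed sign without replicate 4, to 0.15 (adjusted p = 0.272) and 0.16 (adjusted p = 0.227). *Gclc* and *Gclm*, the catalytic and modifier subunits of the rate-limiting glutamate-cysteine ligase, had log2 fold changes of 0.04 (SE 0.15, adjusted p = 0.907) and -0.10 (SE 0.14, adjusted p = 0.731) in RPFs. *Gclc* stood at 70.5, 59.4, 66.0 and 35.9 RPF CPM in KM_NTC against 55.8, 56.6, 81.0 and 43.9 in KM_4A2cr, and *Gclm* at 52.4, 51.7, 57.2 and 45.5 against 39.5, 50.1, 49.7 and 56.3. Neither gene separated the lines, and in total RNA they gave -0.09 (SE 0.13, adjusted p = 0.770) and -0.15 (SE 0.12, adjusted p = 0.559). *Gss*, glutathione synthetase, had an RPF log2 fold change of -0.26 (adjusted p = 0.458) with pair ratios of 0.690, 0.726, 0.699 and 1.41, and without replicate 4 it fell, at -0.50 (adjusted p = 0.0125) in RPFs and -0.48 (adjusted p = 0.0441) in total RNA. *Gsr*, glutathione reductase, was higher in 4 of 4 RPF pairs, which 14.1% of all genes were, at 0.18 (adjusted p = 0.396), and near 0 in total RNA at -0.02 (adjusted p = 0.956).

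In the thioredoxin system, *Txnrd1* fell in RPFs while 4 other genes did not pass. *Txnrd1* (ENSMUSG00000020250.12), the cytosolic selenoenzyme that reduces thioredoxin, had 94.4, 120.1, 98.1 and 133 RPF CPM in KM_NTC and 65.0, 96.2, 76.5 and 99.6 in KM_4A2cr. Every pair was lower in KM_4A2cr, at ratios of 0.688, 0.801, 0.780 and 0.751, although the groups overlapped. The fit gave -0.41 (SE 0.12, adjusted p = 0.0865) in RPFs and -0.25 (SE 0.14, adjusted p = 0.371) in total RNA, where pair 4 went the other way, and the difference in translational efficiency did not pass (-0.15, adjusted p = 0.548). The RPF call was lost without replicate 1, 2 or 3 (adjusted p = 0.268, 0.376 and 0.345), while without replicate 4 both measures passed, at -0.40 (adjusted p = 0.0114) and -0.38 (adjusted p = 0.00458). *Srxn1*, which reactivates overoxidised peroxiredoxins, had 5.70, 4.57, 5.75 and 8.18 RPF CPM in KM_NTC and 4.35, 4.80, 4.49 and 6.46 in KM_4A2cr, with overlapping groups. Log2 fold changes were -0.25 (SE 0.19, adjusted p = 0.459) in RPFs and -0.23 (SE 0.14, adjusted p = 0.448) in total RNA. *Txn1*, thioredoxin itself, gave -0.05 (adjusted p = 0.854), and mitochondrial *Txnrd2* gave 0.23 (adjusted p = 0.396) in RPFs, where it passed as higher without replicate 4, at 0.33 (adjusted p = 0.0934). *Txnip*, the inhibitor of thioredoxin, had log2 fold changes of 0.47 (adjusted p = 0.326) and 0.47 (adjusted p = 0.254) in RPFs and total RNA, with RPF pair ratios from 0.651 to 2.22, and its total RNA passed as higher without replicate 4, at 0.58 (adjusted p = 0.0298).

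Catalase fell in RPFs, and neither superoxide dismutase passed. *Cat* (ENSMUSG00000027187.11), the peroxisomal enzyme that splits hydrogen peroxide, had 41.5, 44.0, 32.2 and 34.6 RPF CPM in KM_NTC and 26.6, 32.8, 19.6 and 19.7 in KM_4A2cr. Only the highest KM_4A2cr library reached into the range of KM_NTC. Its fitted log2 fold change was -0.64 (SE 0.13, adjusted p = 0.0300), a level 0.642 times that in KM_NTC. In total RNA, *Cat* stood at 31.1, 31.8, 26.9 and 25.1 CPM in KM_NTC and 21.8, 28.8, 12.7 and 18.0 in KM_4A2cr, lower in 4 of 4 pairs, at -0.53 (SE 0.16, adjusted p = 0.112). Without replicate 4 both passed, at -0.58 (adjusted p = 0.00453) and -0.53 (adjusted p = 0.0112), and the RPF call was lost without replicate 1, 2 or 3 (adjusted p = 0.130, 0.149 and 0.248). *Cat* lies on chromosome 2, as do *Nfe2l2*, *Gss* and *Srxn1*, and 833 tested genes of that chromosome had a median of -0.21 on the log2 scale in RPFs and 10.2% were called lower, against 0.01 and 2.91% elsewhere. The part of the chromosome in these values was not tested. Cytosolic *Sod1* and mitochondrial *Sod2*, which turn superoxide into hydrogen peroxide, gave 0.04 (adjusted p = 0.851) and -0.02 (adjusted p = 0.957) in RPFs.

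Glutathione peroxidases held the largest change of the 45 genes. *Gpx2* (ENSMUSG00000042808.11), an epithelial selenoenzyme that reduces hydrogen and lipid peroxides, had 7.60, 8.04, 7.81 and 4.41 RPF CPM in KM_NTC replicates 1 to 4 and 3.02, 2.21, 1.26 and 1.62 in KM_4A2cr. Total RNA stood at 5.33, 4.77, 4.60 and 2.11 CPM in KM_NTC and 1.47, 0.382, 0.757 and 0.692 in KM_4A2cr. The 2 lines did not overlap in either measure, and KM_NTC replicate 4 was the library closest to the KM_4A2cr values. The fitted difference on the log2 scale was -1.79 (SE 0.25, adjusted p = 0.00969) in RPFs and -2.41 (SE 0.35, adjusted p = 0.00640) in total RNA, or 0.289 and 0.188 times the KM_NTC level, and the second was the lowest of all 10880 genes tested. *Gpx2* was placed in the list with this fall in total RNA known, so the value describes the libraries and is no independent evidence. The gene is scarce, with 38, 53, 34 and 11 total RNA counts in KM_NTC and 9, 3, 4 and 3 in KM_4A2cr, and 243 against 58 RPF counts in all. The RPF call was lost without replicate 3 (-1.52, adjusted p = 0.130), and without replicate 4 the values were -1.83 (adjusted p = 0.000368) and -2.55 (adjusted p = 1.98e-05).

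The other 3 tested glutathione peroxidases did not pass. *Gpx4*, which protects membranes from lipid peroxides, gave RPF CPM of 117, 113, 192 and 182 in KM_NTC and 82.2, 123, 110.0 and 313 in KM_4A2cr. Its replicate 4 value in KM_4A2cr was the highest and the other 3 were spread among or below the KM_NTC values, with log2 fold changes of -0.10 (adjusted p = 0.827) in RPFs and 0.11 (adjusted p = 0.761) in total RNA. *Gpx1*, the main cytosolic form, had 75.1 ± 24.9 and 74.8 ± 20.2 total RNA CPM (SD, n = 4) and 4.39 ± 1.71 and 3.56 ± 1.46 RPF CPM, with log2 fold changes of 0.02 (adjusted p = 0.969) and -0.29 (adjusted p = 0.472). Its RPFs were counted on 1 of 3 isoforms and its total RNA was summed over all of them, so the 2 levels are not directly comparable. *Gpx8*, a form of the endoplasmic reticulum, had 0.22 (adjusted p = 0.509) in RPFs and was higher in pairs 1 to 3 at ratios of 1.57, 1.32 and 1.25, against 0.705 in pair 4. Without replicate 4 it rose in RPFs (0.46, adjusted p = 0.00620) and total RNA (0.30, adjusted p = 0.0229), and *Gpx4* fell (-0.39, adjusted p = 0.0682). *Gpx3*, the secreted form, had 3 total RNA counts in all and was not tested.

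**Figure D3:**
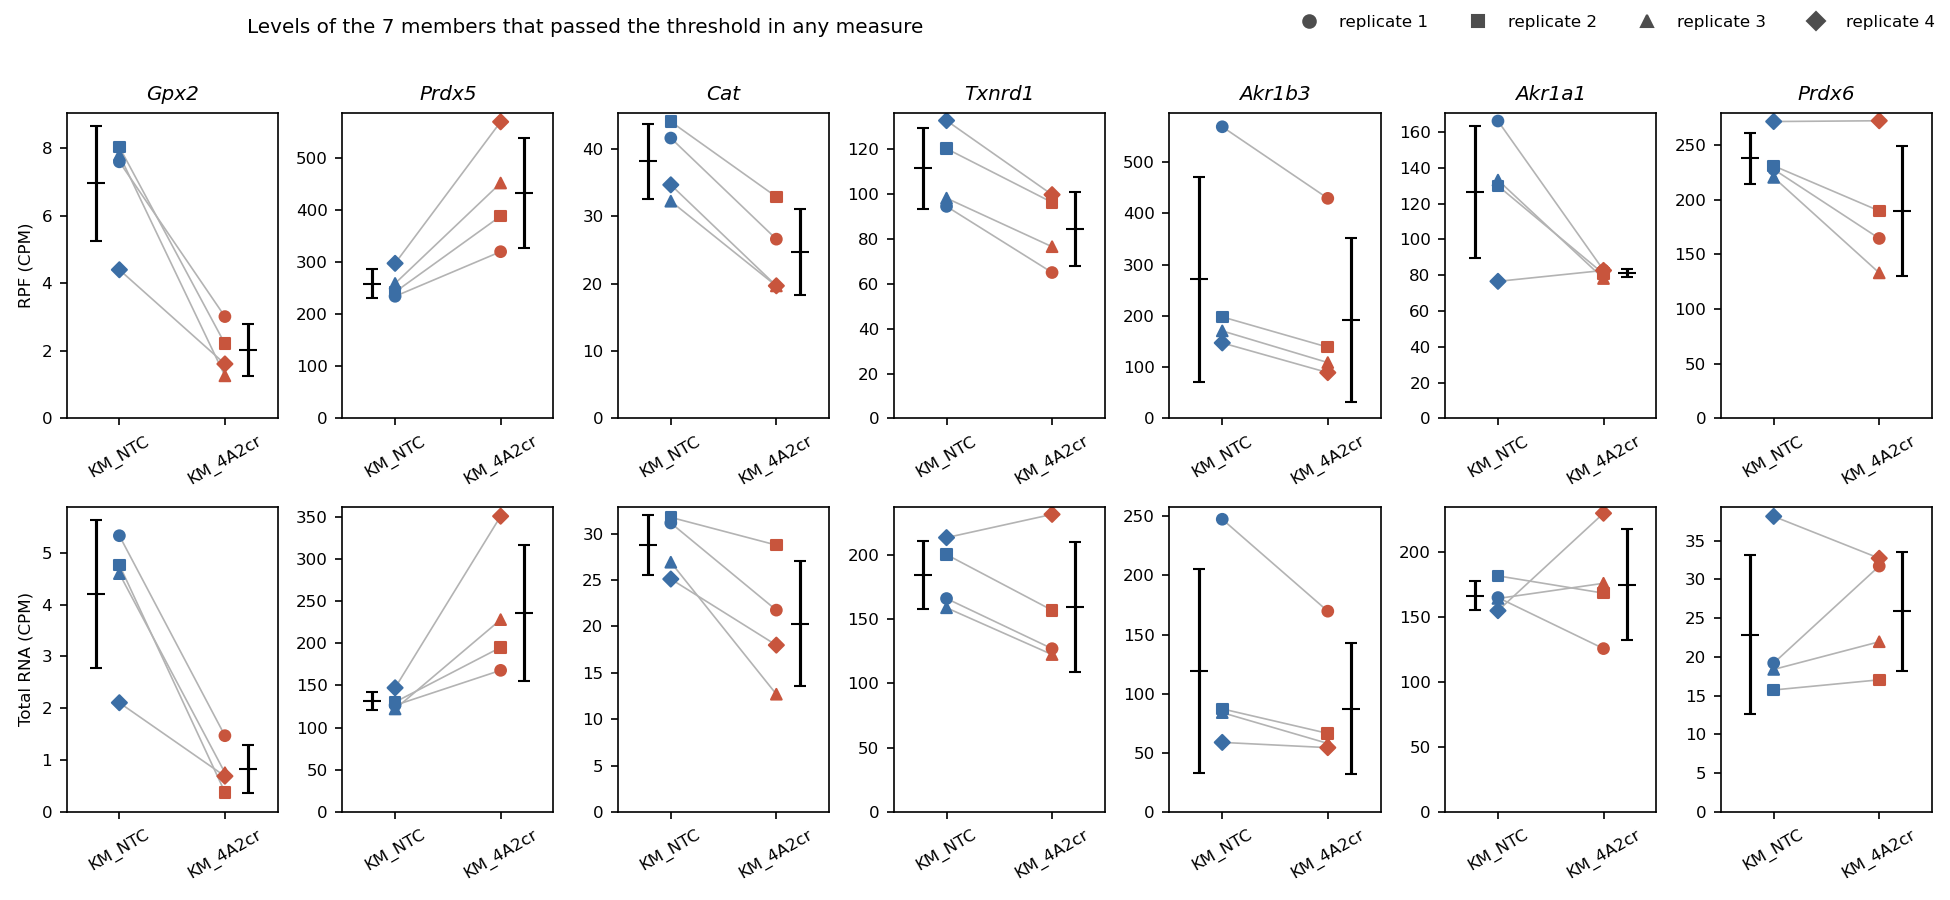
RPF (top) and total RNA (bottom) levels in CPM, on linear axes from 0, for the 7 members that passed the threshold in RPFs, total RNA or translational efficiency. Points are libraries, grey lines join replicates of the same number, and black bars are means with SD (n = 4). *Gpx2* and *Prdx5* separate the lines in both rows, and replicate 1 of *Akr1b3* stands above the rest in both lines.

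Among the 6 peroxiredoxins, *Prdx5* rose. *Prdx5* (ENSMUSG00000024953.18), found in mitochondria, peroxisomes and cytosol, had 235, 243, 259.5 and 298 RPF CPM in KM_NTC and 320.5, 389, 452 and 570.0 in KM_4A2cr. Total RNA stood at 126, 130.3, 122 and 147 CPM in KM_NTC and 168, 195, 228 and 351 in KM_4A2cr. Each KM_4A2cr library lay above each KM_NTC library in both measures, and the highest was replicate 4. Log2 fold changes of 0.72 (SE 0.13, adjusted p = 0.0203) in RPFs and 0.79 (SE 0.16, adjusted p = 0.0260) in total RNA correspond to 1.64 and 1.72 times the KM_NTC level. Without replicate 4 they were 0.64 (adjusted p = 0.000867) and 0.62 (adjusted p = 0.000144), and the calls were lost without replicate 2 (adjusted p = 0.166 and 0.114) or replicate 3 (0.200 and 0.257).

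*Prdx4*, the peroxiredoxin of the endoplasmic reticulum, had a log2 fold change of 0.48 (adjusted p = 0.153) in RPFs and 0.48 (adjusted p = 0.166) in total RNA, with ratios of 1.97, 1.56, 1.37 and 0.890 in RPF pairs 1 to 4. Without replicate 4 it rose, at 0.69 (adjusted p = 0.000961) and 0.69 (adjusted p = 3.24e-05). Cytosolic *Prdx1* had 810.1, 684, 674 and 429 RPF CPM in KM_NTC and 679.9, 504, 413 and 368 in KM_4A2cr, lower in 4 of 4 pairs of both measures. It just missed the threshold in RPFs, at -0.41 (adjusted p = 0.111), gave -0.26 (adjusted p = 0.350) in total RNA and passed in both without replicate 4, at -0.46 (adjusted p = 0.00908) and -0.30 (adjusted p = 0.0244). *Prdx2* and mitochondrial *Prdx3* gave -0.23 (adjusted p = 0.293) and -0.06 (adjusted p = 0.812) in RPFs, and *Prdx2* fell there without replicate 4, at -0.27 (adjusted p = 0.0644). *Prdx6*, which also has phospholipase activity, lay on opposite sides of 0 in the 2 measures without passing, at -0.37 (SE 0.15, adjusted p = 0.170) in RPFs and 0.22 (SE 0.16, adjusted p = 0.528) in total RNA. Without replicate 4 both passed, lower in RPFs at -0.49 (adjusted p = 0.00566) and higher in total RNA at 0.36 (adjusted p = 0.0710).

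All 5 genes of NADPH supply lay below 0 in both measures, and none passed. *G6pdx*, which opens the pentose phosphate pathway, gave -0.31 (adjusted p = 0.231) in RPFs and -0.31 (adjusted p = 0.256) in total RNA. *Pgd*, the next dehydrogenase, gave -0.28 (adjusted p = 0.228) and -0.19 (adjusted p = 0.434) and was lower in 4 of 4 pairs in both. Being lower in every pair held for 12 of 41 members in RPFs and 12 of 42 in total RNA, and for 16.0% and 13.0% of all genes. *Tkt*, a transketolase, gave -0.24 (adjusted p = 0.315) and -0.24 (adjusted p = 0.348), and *Me1*, the malic enzyme, -0.31 (adjusted p = 0.157) and -0.06 (adjusted p = 0.872). *Taldo1*, transaldolase, was nearest 0 at -0.03 (adjusted p = 0.926) and -0.04 (adjusted p = 0.945), with a total RNA ratio of 1.83 in pair 4 against 0.708 to 0.857 in the others. Without replicate 4, *G6pdx* and *Me1* fell in RPFs, at -0.44 (adjusted p = 0.0106) and -0.35 (adjusted p = 0.0205), and *G6pdx*, *Me1*, *Tkt* and *Taldo1* fell in total RNA, with log2 fold changes between -0.41 and -0.23.

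The glutathione transferases, which attach glutathione to electrophiles, did not pass over all 4 pairs. *Gstm1* had the lowest RPF value of the group, -0.80 (adjusted p = 0.118), from 16.0, 6.05, 7.12 and 13.8 CPM in KM_NTC and 10.8, 5.66, 1.68 and 7.00 in KM_4A2cr. The groups overlapped widely and the lowest ratios were in pairs 3 and 4, at 0.236 and 0.506, and it fell in RPFs without replicate 4, at -0.71 (adjusted p = 0.0680). *Gsto1*, the most abundant member per length in KM_NTC total RNA at 623 ± 199.7 TPM (SD, n = 4), gave -0.30 (adjusted p = 0.214) in RPFs. Without replicate 4 it fell in RPFs (-0.41, adjusted p = 0.0114) and total RNA (-0.29, adjusted p = 0.0233). *Gstp1* and the microsomal *Mgst3* gave -0.16 (adjusted p = 0.472) and -0.21 (adjusted p = 0.537). *Mgst1*, another microsomal enzyme, had only 8 and 5 RPF counts in the lines and gave 0.40 (adjusted p = 0.623) in total RNA, where it rose without replicate 4, at 1.00 (adjusted p = 0.0449). *Gstm1* and *Gstp1* have near copies whose fragments may be exchanged, and *Gstp2* held 8495 RPF counts in KM_NTC against 985 on *Gstp1* but 199 total RNA counts against 810, so values of *Gstp1* are uncertain.

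Of 7 genes for carbonyl and epoxide detoxification and export, *Akr1b3* and *Akr1a1* fell in RPFs. *Akr1b3* (ENSMUSG00000001642.19), aldose reductase, had 568, 198, 171 and 147 RPF CPM in KM_NTC and 429, 139, 109 and 89.4 in KM_4A2cr. Replicate 1 was higher than the others in both lines, so the groups overlapped although each pair was lower in KM_4A2cr, at ratios of 0.755, 0.702, 0.639 and 0.607. Fitted values were -0.57 (SE 0.12, adjusted p = 0.0366) in RPFs and -0.40 (SE 0.13, adjusted p = 0.122) in total RNA. The RPF call was lost without replicate 1, 2 or 3 (adjusted p = 0.114, 0.248 and 0.285), and without replicate 4 both measures passed, at -0.52 (adjusted p = 0.00263) and -0.50 (adjusted p = 0.000667). Its relative *Akr1b8* gave -0.23 (adjusted p = 0.367 by edgeR) in RPFs. Carbonyl reductase *Cbr1* gave -0.23 (adjusted p = 0.516) and -0.44 (adjusted p = 0.258) in RPFs and total RNA, while *Cbr3* had 31 and 12 RPF counts and was not tested. Microsomal epoxide hydrolase *Ephx1* gave 0.11 (adjusted p = 0.756), with 789 and 1165 RPF CPM in replicate 4 of the lines and at most 270.1 in other replicates. The exporter *Abcc1* gave 0.13 (adjusted p = 0.630) and *Ugdh*, which makes UDP-glucuronate, -0.07 (adjusted p = 0.812) in RPFs. Without replicate 4, *Ugdh* fell in RPFs (-0.25, adjusted p = 0.0852), and *Abcc1* stood at 0.26 (adjusted p = 0.117) in RPFs and rose in total RNA (0.32, adjusted p = 0.0186).

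Translational efficiency, the change in RPFs beyond that in total RNA, was lower for 2 of 41 members, *Akr1a1* and *Prdx6*, and higher for none, by edgeR's interaction test at an adjusted p below 0.1. Over all 9989 genes tested 1.04% were lower and 1.87% higher. The members' median was -0.07, against -0.02 over all genes. *Akr1a1* (ENSMUSG00000028692.15), an aldehyde reductase, had 166, 129.9, 133 and 76.6 RPF CPM in KM_NTC and 82.8, 80.8, 78.1 and 82.7 in KM_4A2cr. Its total RNA stood at 165, 182, 164 and 155 CPM in KM_NTC and 126, 168, 176 and 230.0 in KM_4A2cr. RPFs were lower in KM_4A2cr in pairs 1 to 3, whereas total RNA was spread around the KM_NTC values. On the log2 scale the fit gave -0.60 (SE 0.18, adjusted p = 0.0941) in RPFs, 0.04 (SE 0.16, adjusted p = 0.930) in total RNA and -0.63 (SE 0.10, adjusted p = 0.00334) in translational efficiency. Its efficiency in KM_4A2cr relative to KM_NTC was 0.655, 0.671, 0.548 and 0.728 in pairs 1 to 4, below 1 in each. The efficiency call held with any 1 replicate left out, at log2 fold changes from -0.67 to -0.52, and the RPF call was lost without replicate 1, 2 or 3 (adjusted p = 0.311, 0.378 and 0.405) but stood at -0.82 (adjusted p = 0.000195) without replicate 4.

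*Prdx6* (ENSMUSG00000026701.16) had 228, 231, 220.4 and 272 RPF CPM in KM_NTC and 165, 189.8, 133 and 272 in KM_4A2cr. In total RNA it had 19.2, 15.7, 18.4 and 38.1 CPM in KM_NTC and 31.7, 17.1, 22.0 and 32.7 in KM_4A2cr. Lower RPFs and higher total RNA in pairs 1 to 3 gave efficiency ratios of 0.438, 0.759, 0.506 and 1.17 in pairs 1 to 4, so pair 4 went the other way. The log2 fold change in efficiency was -0.58 (SE 0.16, adjusted p = 0.0821), which was lost without replicate 1, 2 or 3 (adjusted p = 0.535, 0.240 and 0.474) and was -0.85 (adjusted p = 0.000762) without replicate 4. It was also lost with DESeq2 (adjusted p = 0.268) and with scaling by library size alone (adjusted p = 0.152 by edgeR). Its near copy *Prdx6b* held 71 and 36 RPF counts, against 7746 and 4866 on *Prdx6*, and 3 and 2 in total RNA. *Prdx6* itself held only 647 total RNA counts in KM_NTC and 586 in KM_4A2cr. RPFs of *Prdx6* were counted on 1 of 2 isoforms and its total RNA was summed over all of them, so the levels are not directly comparable. *Gpx2*, whose RPFs and total RNA both fell, had an efficiency change of 0.66 (SE 0.41, adjusted p = 0.493), and *Prdx5* one of -0.07 (SE 0.10, adjusted p = 0.802). Neither passed, which at the SE of *Gpx2* does not show that its efficiency was the same in the lines. Of the other members with full statistics, *Nfe2l2* gave -0.12 (adjusted p = 0.623), *Keap1* -0.11 (adjusted p = 0.815), *Hmox1* -0.07 (adjusted p = 0.797), *Slc7a11* 0.02 (adjusted p = 0.945), *Gclc* 0.12 (adjusted p = 0.663), *Gclm* 0.04 (adjusted p = 0.912) and *Srxn1* -0.04 (adjusted p = 0.948), and *Cat* and *Akr1b3* -0.11 (adjusted p = 0.779) and -0.14 (adjusted p = 0.624).

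**Figure D4:**
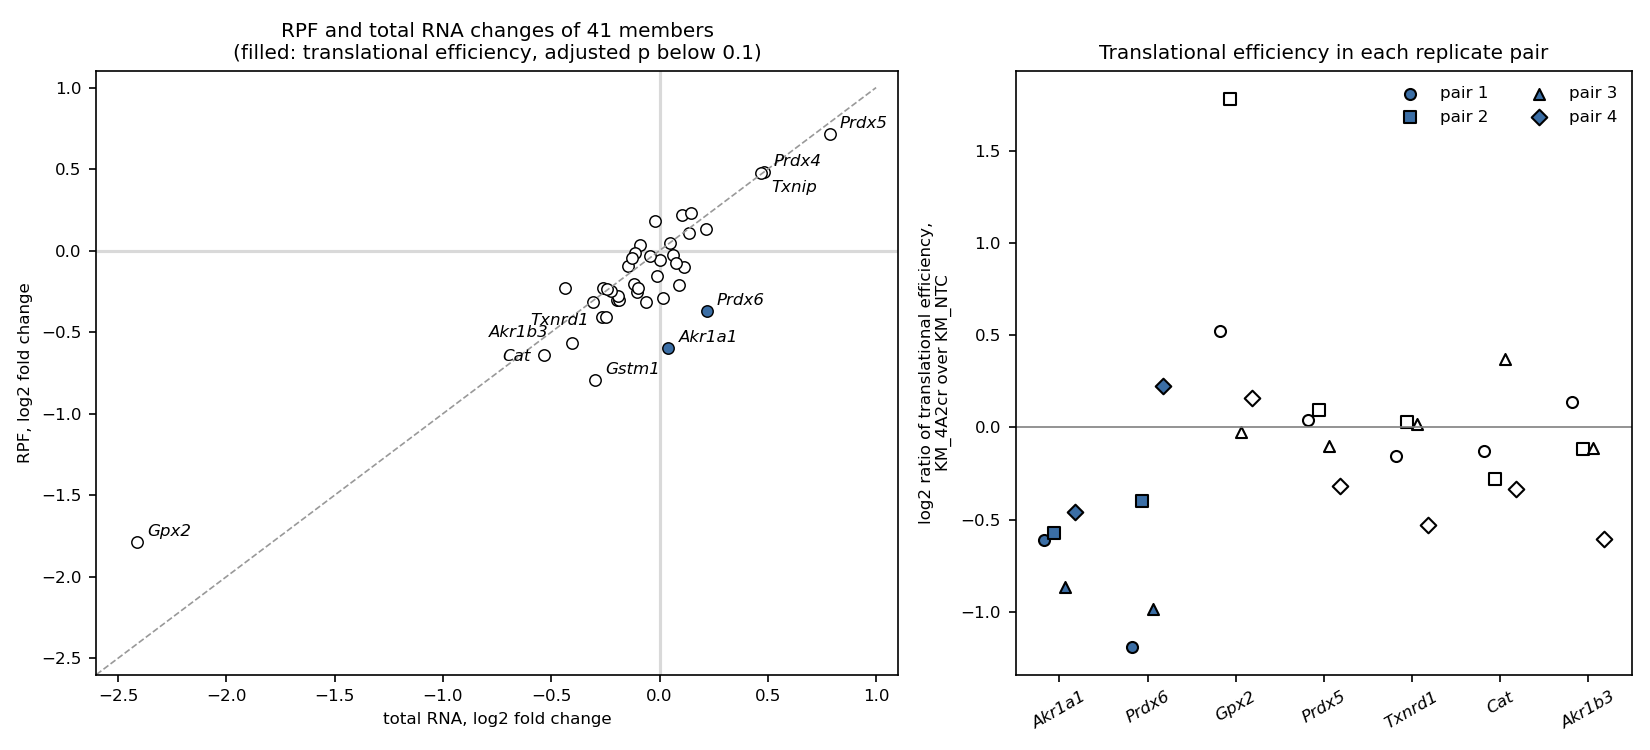
Left, RPF against total RNA log2 fold change (KM_4A2cr over KM_NTC) of 41 members, with the dashed line of equal change; filled points passed an adjusted p of 0.1 for translational efficiency. Right, log2 ratio of translational efficiency in each of 4 replicate pairs for 7 members. *Akr1a1* lies below 0 in every pair, and *Prdx6* in pairs 1 to 3 only.

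Beyond the 45 members, a wider list of 78 genes of redox control and detoxification had 68 tested in RPFs, of which 2 were higher and 4 lower (6.6% and 3.72% of all genes), and a median log2 fold change of -0.12 (-0.01 over all genes). The higher genes were *Nfe2l1*, a relative of NRF2 that controls proteasome genes, at 0.66 (adjusted p = 0.0198), and *Oxr1*, an oxidation resistance gene, at 0.47 (adjusted p = 0.0650). The lower genes were the glutathione transferases *Gstt3* at -1.27 (adjusted p = 0.0282), *Gstt2* at -1.70 (adjusted p = 0.0895) and *Gstm2* at -0.99 (adjusted p = 0.0941), and biliverdin reductase *Blvra* at -0.45 (adjusted p = 0.0991). *Blvra* lies on chromosome 2, where the RPF median was -0.21 and 10.2% of genes were called lower. *Gstm2* is the near copy of *Gstm1*, with which it may exchange fragments, and held 94 RPF counts in KM_NTC and 38 in KM_4A2cr. Neither *Gstm2* nor *Gstt2* (SE 0.50) was tested in total RNA. *Gstt3* had 3.44, 5.16, 4.38 and 5.87 RPF CPM in KM_NTC and 1.81, 2.58, 1.40 and 1.62 in KM_4A2cr, which do not overlap, but only 52 counts over the KM_4A2cr libraries. Without replicate 4, 16 were lower and 9 higher of 69 tested, where 14.3% and 19.1% of all genes were called. Each of the 6 RPF calls was lost when replicate 2 or 3 was left out, with adjusted p from 0.138 to 0.449, and *Oxr1*, *Gstt2*, *Gstm2* and *Blvra* also without replicate 1. In total RNA 2 of 64 tested were lower, *Gstt3* at -1.31 (adjusted p = 0.0362) and the exporter *Abcc5* at -0.57 (adjusted p = 0.0670), and 0 higher by edgeR (1.78% and 4.35% of all genes), and both calls were lost without replicate 1, 2 or 3. Translational efficiency was higher for 3 of 63, and for 1.87% of all genes. These were *Cul3*, the ubiquitin ligase scaffold that works with KEAP1, at 0.41 (adjusted p = 0.0656), *Oxr1* at 0.50 (adjusted p = 0.0369) and *Nfe2l1* at 0.34 (adjusted p = 0.0767), and each of these was lost without replicate 1, 2 or 3. *Cul3*, called in this measure alone, was picked out after its value was seen. Among 23 selenoprotein genes, 17 were tested in RPFs. *Gpx2* and *Txnrd1*, which are members described above, fell, where 3.72% of all genes were lower. *Selenos*, a protein of the endoplasmic reticulum membrane, rose at 0.63 (adjusted p = 0.0467), where 6.6% of all genes were higher, a call lost without replicate 1, 2 or 3. The median was 0.01 in RPFs and 0.09 in total RNA, where *Gpx2* alone was called by edgeR.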

How the data were processed

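Each of 4 lysates per cell line gave an RPF and a total RNA library. The authors deposited RPF tables as whole counts of each transcript, summed over the coding sequence. They were made by trimming (cutadapt 1.18), collapsing UMIs (UMI-tools 1.0.1) and aligning to the most abundant protein-coding transcript of each gene. The paper describes its sums as leaving out codons at both ends of the coding sequence. The deposited total RNA tables hold expected counts and TPM by isoform. The submitters' processing notes name RSEM 1.3.3 and Bowtie2 2.3.5.1. Here 15235 RPF transcripts were joined to genes, a missing transcript was taken as 0, and expected counts were summed per gene and rounded. Genes were filtered with filterByExpr, scaled by TMM within each kind of library and tested with edgeR 4.0.16 (R 4.3.3; glmQLFit and glmQLFTest) in a model of cell line plus replicate, with Benjamini-Hochberg adjustment over all genes tested (threshold 0.1). All adjusted p-values are from edgeR unless DESeq2 (1.42.0) is named. Each SE is the size of the log2 fold change divided by the square root of the F statistic of the edgeR test. For translational efficiency, 1 model over 16 libraries, with a term per lysate, tested whether the cell line effect differed between RPFs and total RNA. Alternatives were the fit without the block, DESeq2, other scalings, no filter, a threshold of 0.05, 1 replicate left out and the RPF isoform only.

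Libraries were paired by replicate number. The design text gives different days for the replicates without saying that equal numbers share a day. Deviations from the cell line means correlated across genes within pairs, at 0.575 to 0.782 for RPFs and 0.611 to 0.756 for total RNA. Libraries of unequal number were not compared in this way, so these values do not show that equal numbers belong together. The calls depend on this pairing, and without it 0 genes were called in any measure by edgeR. Full statistics are given for members that passed in any measure and for *Gpx2*, *Nfe2l2*, *Keap1*, *Nqo1*, *Hmox1*, *Slc7a11*, *Gclc*, *Gclm*, *Txnrd1* and *Srxn1*, and wider genes are named where called. Members and lists were chosen with earlier results of these data known. Each kind of library was scaled separately, so a change shared by all footprints or all mRNA leaves no trace. A further allele of the mouse and 1 marker are not reported here. Depth was from 4512403 to 9621848 counts per library.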

Additional observations from a re-analysis of the deposited data

Results flagged for a closer look

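Of 56 groups of 4 libraries of the fully described members, 8 held a library far from the other 3, where chance gives about 1 in 20 for independent groups. These groups are not independent, since they share libraries and lysates, and *Akr1b3* in replicate 1 makes up 4 of the 8. *Akr1b3* was high in replicate 1 of all 4 groups, at 568.5 RPF CPM in KM_NTC (others 147 to 198), 429 in KM_4A2cr (89.4 to 139), and 247 and 169.7 CPM in total RNA (58.8 to 87.2 and 54.4 to 66.4). Replicate 4 of KM_NTC stood apart 3 times, with *Gpx2* at 4.41 RPF CPM (others 7.60 to 8.04), *Srxn1* at 49.0 total RNA CPM (27.4 to 30.7) and *Prdx6* at 38.1 (15.7 to 19.2). *Hmox1* was low in total RNA of KM_NTC replicate 1, at 31.0 CPM (66.9 to 70.1).

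The change in RPFs differed from that in total RNA, by the interaction term of edgeR, for *Akr1a1* (log2 difference -0.63, adjusted p = 0.00334, in the same direction in 4 of 4 pairs) and *Prdx6* (-0.58, adjusted p = 0.0821, in 3 of 4 pairs).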

How the results depend on the processing

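Members called numbered 6 in RPFs, 2 in total RNA and 2 in translational efficiency. Without the replicate block, which ignores the pairing, 0 were called in each by edgeR, with 4, 2 and 1 at an unadjusted p below 0.05. Leaving out 1 replicate gave 0 to 20 in RPFs, 1 to 19 in total RNA and 1 to 2 in translational efficiency, highest without replicate 4. Members called, with the share of all genes called in the same fit, were in RPFs, total RNA and translational efficiency 14 (15.7%), 6 (10.4%) and 1 (1.32%) with scaling by library size only, 8 (9.31%), 2 (5.41%) and 1 (0.711%) with DESeq2, 7 (9.70%), 3 (4.97%) and 2 (2.63%) with upper-quartile scaling, 7 (8.72%), 6 (7.18%) and 2 (3.45%) with no filter on low counts, and 4 (4.26%), 2 (2.95%) and 1 (0.761%) at a threshold of 0.05. Total RNA counts of the RPF isoform only gave 2 (4.81%) and 2 (2.59%) in the last measures. For comparison, the shares over all libraries were 10.3%, 6.13% and 2.91%, and without replicate 4 they were 33.4%, 29.8% and 6.68%.

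Some log2 fold changes changed sign under an alternative. In RPFs they were for *Hmox1* 0.074 without the replicate block and -0.098 to 0.12 with a replicate left out, *Slc7a11* -0.39 to 0.15 with a replicate left out, *Gclc* -0.0042 with upper-quartile scaling, -0.095 with library size only and -0.039 to 0.17 with a replicate left out and *Gclm* -0.22 to 0.010 with a replicate left out. In total RNA they were for *Keap1* 0.044 with the RPF isoform only, *Hmox1* -0.096 with library size only and -0.057 to 0.13 with a replicate left out, *Slc7a11* 0.012 without the replicate block and -0.45 to 0.16 with a replicate left out, *Gclc* -0.18 to 0.026 with a replicate left out and *Akr1a1* -5.01e-05 with upper-quartile scaling, -0.12 with library size only and -0.14 to 0.18 with a replicate left out. In translational efficiency they were for *Keap1* -0.15 to 0.026 with a replicate left out, *Slc7a11* -0.045 without the replicate block and -0.0063 to 0.072 with a replicate left out, *Gclm* -0.046 to 0.15 with a replicate left out, *Srxn1* -0.20 to 0.11 with a replicate left out and *Prdx5* -0.12 to 0.023 with a replicate left out. The causes were not tested. *Gpx2* rests on 136 and 19 total RNA counts, and 4 pairs limit what small changes can be seen.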
